A study of Homo sapiens with 27 samples.

Results

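The genes described here are 8 genes that are recurrently mutated, or otherwise used to sort tumours, in uveal melanoma: *GNAQ*, *GNA11*, *PLCB4*, *CYSLTR2*, *BAP1*, *SF3B1*, *EIF1AX* and *PRAME*. They were found by symbol, and each symbol matched exactly 1 of the 61533 genes in the count table. The cells were 92.1, an established uveal melanoma cell line that carries a *GNAQ* mutation, kept in medium with DMSO or with 100 nM of VS-4718, an inhibitor of focal adhesion kinase (FAKi), renewed every 72 h. The 27 mRNA libraries formed 9 groups of 3, which were DMSO on day 0 and both treatments on days 3, 7, 14 and 21. All groups came from this 1 cell line, so treated and control cells had a common origin. The counts measured RNA amount and not mutations, and the alleles of the 8 genes were not examined.

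In most uveal melanomas, signaling through the G protein subunits Gαq and Gα11, encoded by *GNAQ* and *GNA11*, is locked on. These subunits activate phospholipase C β, of which *PLCB4* encodes an isoform, and they also signal to FAK through the exchange factor TRIO. *CYSLTR2* encodes a leukotriene receptor that couples to Gαq, and mutations in *GNAQ*, *GNA11*, *CYSLTR2* and *PLCB4* rarely occur together. A later change usually falls in *BAP1* (a nuclear deubiquitinase), *SF3B1* (a subunit of the spliceosome's U2 snRNP) or *EIF1AX* (eIF1A, which helps the ribosome select the start codon). *PRAME* encodes a substrate receptor of a ubiquitin ligase, and its RNA is used as a marker of metastatic risk.

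Of 8 melanocyte lineage markers, 7 had a mean of at least 1 CPM (a count scaled to the size of its library), and their summed level was between 9366 and 15290 CPM in the 27 libraries. Among 5 immune markers only *CD68*, which is also found outside immune cells, reached a mean of 1 CPM. Of 6 fibroblast markers, *COL1A1* and *LUM* did so, with means of 5.73 and 5.08 CPM, and the 6 together stayed between 6.17 and 16.99 CPM. The 4 endothelial markers together stayed between 0 and 0.939 CPM and the 4 epithelial markers between 0.350 and 2.25 CPM. Total counts per library ranged from 12161994 to 43651551, with a median of 24759579. FAKi day 7 replicate 1 and FAKi day 14 replicate 1, which carry different days in their labels, were the most similar pair of all libraries. Their root mean square difference was 0.215 on the log2 CPM scale over 16981 genes, against 0.229 to 0.807 between replicates of the same group. In 3 groups 1 library stood apart from the other two. DMSO day 21 replicate 3 differed by 0.720 and 0.767 from its replicates, which were 0.322 apart, and its mitochondrial share was 9.75% against 5.49% in both. The count column of this library has an additional digit in its day, and its group was taken from its title. DMSO day 3 replicate 1 differed by 0.577 and 0.807 from its replicates, which were 0.474 apart. It was 0.266 from DMSO day 0 replicate 3. Its mitochondrial share was 18.1% against 9.59% and 8.61%. That share was 17.0% to 18.8% in DMSO day 0 and 16.8% to 18.7% in FAKi day 3. FAKi day 7 replicate 1 differed by 0.707 and 0.740 from its replicates, which were 0.415 apart. Driver gene results that passed a test and include either of the 2 similar FAKi libraries are also given without them. The study's methods describe triplicate plating for each condition and 3 biological replicates of the whole experiment. The labels number the replicates but do not say which of these a library stands for, so p-values measure the spread between these samples.

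*SF3B1* was the most abundant of the 8 transcripts when counts were divided by transcript length, with 26.9 ± 4.08 CPM per kb (SD, n = 27 libraries). It was followed by *BAP1* with 18.1 ± 2.36, *EIF1AX* with 16.4 ± 3.14 and *GNA11* with 13.5 ± 1.85 CPM per kb. *GNAQ*, the gene that is mutated in these cells, stood at 5.94 ± 1.12 CPM per kb, and *PLCB4* at 1.04 ± 0.317. *PRAME* and *CYSLTR2* were barely counted, at 0.0672 ± 0.0454 and 0.0414 ± 0.0439 CPM per kb. Each value rests on 1 transcript per gene, and that transcript covered 36.2% of the annotated exon bases of *PLCB4*, so reads on other *PLCB4* exons were not counted. For *SF3B1* and *PRAME* the counted transcript is annotated as retaining an intron, but 97.5% and 99.3% of its bases lie in exons of the gene's protein-coding transcripts. In *GNA11*, 15.6% of the counted bases overlap exons on the other strand, and the strand setting of the counting is not given.

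**Figure D1:**
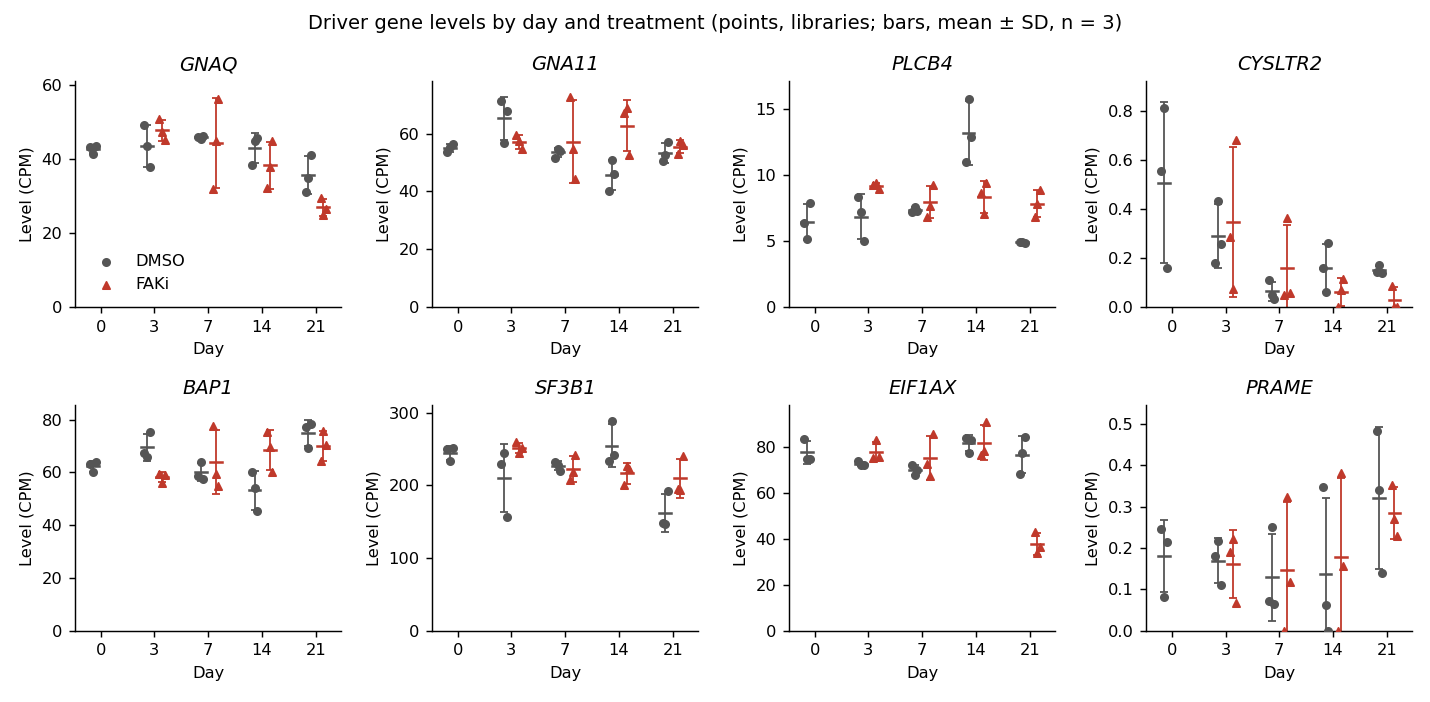
Level of each driver gene in CPM (vertical axis, from 0) by day in culture (horizontal axis) for DMSO (circles) and FAKi (triangles), 1 point per library, with the group mean and SD (n = 3). The 3 FAKi day 21 libraries of *EIF1AX* sit between 33.8 and 43.0 CPM, below all 24 other libraries, and *CYSLTR2* and *PRAME* stay under 1 CPM throughout.

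The question put to these genes was whether 21 days of FAK inhibition changed their RNA. Each day was compared in its own 6 libraries with the quasi-likelihood test of edgeR, with p-values adjusted over all genes tested. A gene rose or fell where the adjusted p was at most 0.05, and it was called where the absolute log2 fold change was also over 1, that is, more than 2-fold. No driver gene was called at any day. At day 3, 0 of 8 genes passed the adjusted p, as did 0% of all 22846 genes tested, although 5442 genes had an unadjusted p under 0.05 and DESeq2 called 755 genes. Without DMSO day 3 replicate 1, 2765 genes were called, and 0 driver genes. *PLCB4* rose in that fit by 0.61 on the log2 scale (adjusted p = 0.0365), as the 1 driver gene to pass. No share of all genes passing is given for that fit, so *PLCB4* cannot be set against it. The fit keeps replicates 2 and 3, whose mitochondrial shares of 9.59% and 8.61% lay below the 16.8% to 18.7% of FAKi day 3. Replicate 1, at 18.1%, lay within that range. Which DMSO day 3 library is unusual was not tested. At day 7, 0 of the 6 genes with enough counts passed, against 0.0269% of all genes tested (6 genes, or 248 without FAKi day 7 replicate 1). At day 14, 3 of 8 genes passed, against 12.4% of all genes tested, and 0 were called, against 1.66%. At day 21, 2 of 7 genes passed, against 11.6% of all genes tested, and 0 were called, against 5.28%. *CYSLTR2* and *PRAME* had fewer than 20 counts over the 6 libraries of day 7, as had *CYSLTR2* at day 21, and were not tested there. An alternative day 21 fit added a term for replicate number (the replicate block). It called 2076 genes, against 1226 in the main fit, and the count of driver genes called stayed at 0. Whether the numbers pair the libraries is not known, because libraries with different numbers were not compared. Without DMSO day 21 replicate 3, which stood apart, 4248 genes were called, and without FAKi day 21 replicate 2 only 52.

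**Figure D2:**
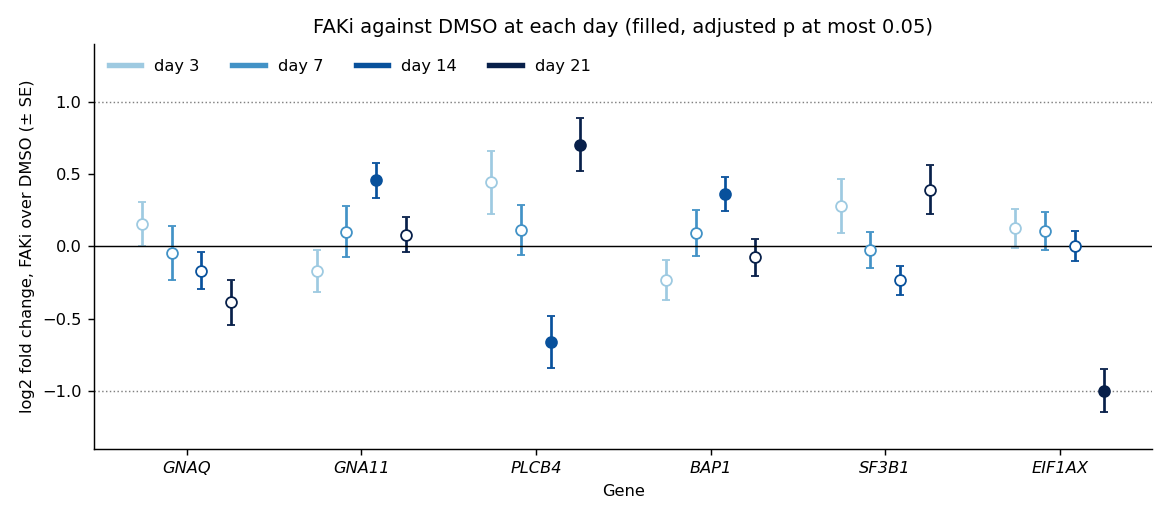
Log2 fold change of FAKi over DMSO (vertical axis, ± SE, n = 3 against 3) for the 6 driver genes with a mean over 1 CPM (horizontal axis), by day in shades of blue. Filled points passed an adjusted p of 0.05 and dotted lines mark a log2 fold change of 1 in either direction. The filled points are *GNA11*, *PLCB4* and *BAP1* at day 14 and *PLCB4* and *EIF1AX* at day 21, where *EIF1AX* reaches -0.998.

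*EIF1AX*, on chromosome X (hg38, 20124525-20141838, minus strand), showed the largest change of the 8 genes at a single day among those that passed. With FAKi on day 21 the 3 libraries measured 43.0, 33.8 and 36.6 CPM. Those with DMSO on the same day measured 68.1, 77.4 and 84.3 CPM. All 24 libraries outside FAKi day 21 lay between 67.1 and 90.7 CPM, so the 3 FAKi day 21 libraries were the lowest of the 27. *EIF1AX* fell on day 21 by 0.998 on the log2 scale (SE 0.149, adjusted p = 0.00868, edgeR), to 0.501 of the DMSO level and just short of the 2-fold limit. In bulk libraries such as these, fewer cells with the transcript and less of it per cell cannot be told apart. On days 3, 7 and 14 its log2 differences were 0.12 (SE 0.135), 0.11 (SE 0.131) and 0.00 (SE 0.103), and the smallest adjusted p was 0.592. The test that the FAKi effect was the same at all 4 days, over 24 libraries, gave an adjusted p of 0.000643 for *EIF1AX*, and 10.3% of all genes tested passed it. Without FAKi day 7 replicate 1 and FAKi day 14 replicate 1 that adjusted p was 0.00038. Without FAKi day 21 replicate 2 the day 21 change was -0.92 and its adjusted p was 0.0741, and without replicate 3 it was -0.98 with an adjusted p of 0.0667. Without DMSO day 21 replicate 3 it was -0.91 with an adjusted p of 2.48e-06. With the replicate block the adjusted p was 0.000645. The share of counts on mitochondrial genes was 10.7% to 11.2% in FAKi on day 21 and 5.49% to 9.75% in DMSO, and the summed melanocyte markers were 14950 to 15290 and 11730 to 13980 CPM. The summed immune markers, nearly all *CD68*, were 23.5 to 27.2 CPM in FAKi and 58.9 to 70.9 in DMSO, and the other 4 markers of that list had means of at most 0.0830 CPM. The part of any of these in the day 21 results was not tested.

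*EIF1AXP1*, a processed pseudogene on chromosome 1 (hg38, 16685621-16686055), is a copy of the *EIF1AX* coding sequence, and it was counted as a gene of its own. Of the 432 coding bases of *EIF1AX*, 430 were identical in the 435 bases of the copy and 2 were mismatches. The alignment also has 3 gap positions, and with these counted its identity is 98.9%. The longest identical run was 276 bases. Many reads from the copy, or from the coding part of *EIF1AX*, can therefore be placed in either gene. The 120 bases from the start codon are shown for the 2 sequences. No other gap-free stretch of that length in the alignment holds more than their 1 mismatch. Both are from GENCODE 44 on GRCh38, and the capital letter marks the mismatch in this stretch.
EIF1AX: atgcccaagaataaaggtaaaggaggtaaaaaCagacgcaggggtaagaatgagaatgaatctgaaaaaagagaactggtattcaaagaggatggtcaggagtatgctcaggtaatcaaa
EIF1AXP1: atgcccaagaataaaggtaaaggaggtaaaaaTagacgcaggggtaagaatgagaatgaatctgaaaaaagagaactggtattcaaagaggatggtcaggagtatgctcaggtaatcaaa

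The copy received 13121 counts in all, equal to 27.3% of the 48010 counts of *EIF1AX*. Per kb it stood higher than the gene itself, at 45.9 ± 8.33 against 16.4 ± 3.14 CPM per kb (SD, n = 27). The counted *EIF1AX* transcript has 4414 bases, of which 9.79% are coding, and the rest of it has no counterpart in the copy. On day 21 *EIF1AXP1* measured 14.8, 17.6 and 20.5 CPM with FAKi and 15.9, 15.2 and 16.8 CPM with DMSO. The groups overlapped, and the log2 difference of 0.17 (SE 0.164) had an adjusted p of 0.501. The ratio of *EIF1AX* to *EIF1AXP1* counts was 2.20 ± 0.616 with FAKi and 4.80 ± 0.453 with DMSO on that day (SD, n = 3). Its highest FAKi value there, 2.91, lay within the 2.56 to 5.49 of the 24 other libraries. With the counts of the copy added to those of *EIF1AX*, the change at day 21 was -0.72 with an adjusted p of 0.0171. The table holds 1 number per gene, so the coding and untranslated parts of *EIF1AX* could not be compared.

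**Figure D3:**
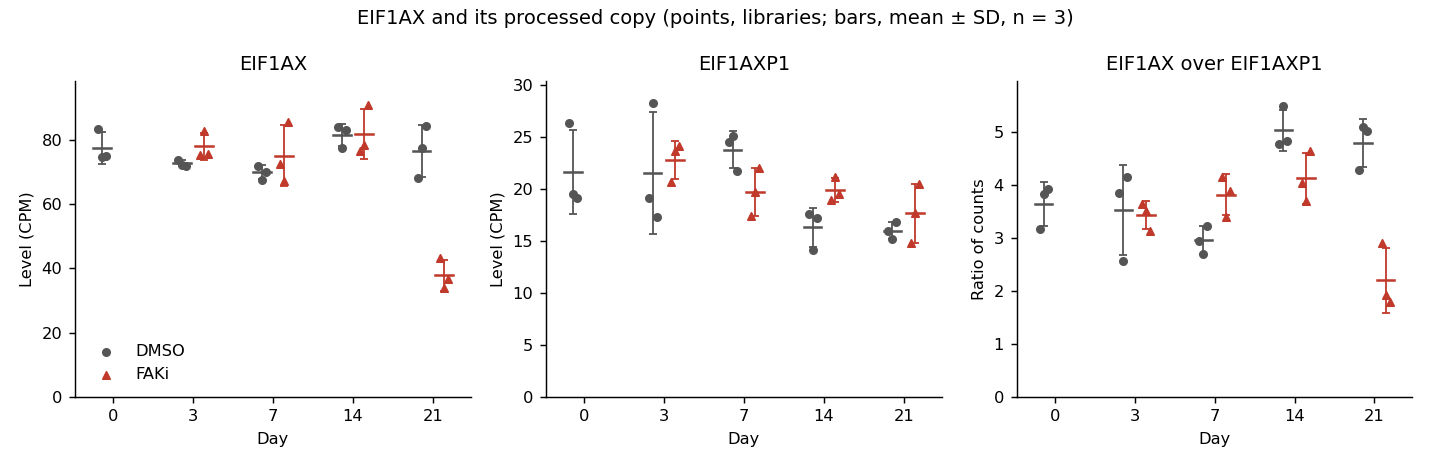
*EIF1AX* (left, CPM), its processed copy *EIF1AXP1* (middle, CPM) and the ratio of their counts (right), by day, 1 point per library with the group mean and SD (n = 3). In FAKi at day 21 *EIF1AX* has a mean of 37.8 CPM against 76.6 in DMSO, while *EIF1AXP1* overlaps between the treatments.

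*EIF1AX* was also the only driver gene that passed in the mean FAKi effect over the 4 days, with a log2 fold change of -0.19 (SE 0.0640, adjusted p = 0.0394, n = 12 against 12), where 15.7% of all genes tested passed. This mean joined a day 21 change of -0.998 with values of at most 0.12 on the other days. It no longer passed without any 1 of 14 of the 24 libraries, with values of -0.22 to -0.17 and adjusted p-values of 0.0197 to 0.0719 over all 24 fits. It also did not pass without FAKi day 7 replicate 1 and FAKi day 14 replicate 1 (-0.18, adjusted p = 0.0816) or with the counts of the copy added (-0.13, adjusted p = 0.135).

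The other initiation factors are the proteins that work with eIF1A in loading the ribosome. Of 14 tested, 6 fell and 1 rose in the mean FAKi effect, where 15.7% of all genes passed, and the median log2 fold change of the list was -0.11, against 0.01 over all genes. *EIF4A1*, the RNA helicase of the cap-binding complex, fell by 0.45 on the log2 scale (SE 0.0850, adjusted p = 0.000972). *EIF3C* and *EIF3B*, subunits of the eIF3 scaffold, fell by 0.59 (adjusted p = 0.00103) and 0.30 (adjusted p = 0.00426). *EIF2S3*, a subunit of the factor that carries the initiator tRNA, fell by 0.36 (adjusted p = 0.00859). At day 21, 4 of the 14 fell and 1 rose, with a list median of -0.39, and at day 14, 7 fell and 0 rose, where 11.6% and 12.4% of all genes passed. In FAKi at day 21 the means of *EIF4A1*, *EIF3C*, *EIF3B* and *EIF2S3* were 690.5, 260.6, 278.2 and 226.7 CPM. In DMSO they were 1136, 456.6, 384.4 and 334.5 CPM at day 21. At day 0 the DMSO means were 706.8, 201.1, 280 and 314.4 CPM. The part of the change in DMSO in these results was not tested.

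*PLCB4* (chromosome 20, 9069078-9480783, plus strand) moved in opposite directions at the last 2 time points. On day 14 its levels were 10.98, 15.8 and 12.9 CPM with DMSO and 8.62, 7.06 and 9.42 CPM with FAKi. On day 21 they were 4.91, 4.94 and 4.86 CPM with DMSO and 6.82, 7.84 and 8.88 CPM with FAKi. The groups did not overlap on either day. At day 3, where no gene passed, *PLCB4* and *EIF1AX* (FAKi above) and *BAP1* (FAKi below) did not overlap either. The share of all genes without overlap was not counted, so non-overlap is a description for every gene named here. Between the 2 days the DMSO mean went from 13.2 to 4.90 CPM and the FAKi mean from 8.36 to 7.85 CPM. *PLCB4* fell with FAKi by 0.66 at day 14 (SE 0.181, adjusted p = 0.0183) and rose by 0.70 at day 21 (SE 0.181, adjusted p = 0.0431), on the log2 scale. At days 3 and 7 the values were 0.44 (SE 0.218) and 0.11 (SE 0.176). The difference between the 4 days passed its own test with an adjusted p of 0.00916, and without FAKi day 7 replicate 1 and FAKi day 14 replicate 1 it was 0.0127.

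The single-day results of *PLCB4* passed in fewer fits. Without FAKi day 14 replicate 1 the day 14 change was -0.68 with an adjusted p of 0.0651, without FAKi replicate 2 it was -0.56 (0.129), and without DMSO replicate 2 it was -0.52 (0.0984). Leaving out any 1 library of day 21 other than DMSO replicate 3 gave changes of 0.60 to 0.80 with adjusted p-values of 0.0814 to 0.181. With a correction for transcript length and GC content together with the replicate block, the day 21 change was 0.52 with an adjusted p of 0.0531. Fold changes at day 21 moved with length over all genes, from a median of -0.30 for transcripts under 1 kb to 0.26 for those over 8 kb, and the counted *PLCB4* transcript is 7748 bases long. The part of length in the result was not tested beyond this correction.

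In DMSO alone *PLCB4* changed with time in culture, with an adjusted p of 0.000299 over the 5 days, where 49.9% of all genes tested passed. On days 0, 3 and 7 its mean was 6.48 ± 1.36, 6.86 ± 1.69 and 7.36 ± 0.216 CPM. On day 14 it was 13.2 ± 2.41 and on day 21 4.90 ± 0.0406 CPM (SD, n = 3). The FAKi means ran from 7.85 ± 1.03 to 9.19 ± 0.253 CPM, a narrower range than in DMSO. In the order of the 9 group means, DMSO day 14 at the top and DMSO day 21 at the bottom each stood apart from their neighbour without overlap, and the 7 groups between them did not differ from their neighbours beyond their spread.

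*GNAQ* (chromosome 9, 77716097-78031811, minus strand) encodes the subunit whose mutation drives these cells. It measured 29.4, 24.7 and 26.4 CPM in FAKi at day 21 and 31.0, 34.8 and 41.1 CPM in DMSO. The groups did not overlap, and the log2 difference was -0.39 (SE 0.156), but the adjusted p was 0.127. FAKi day 21 was the lowest of the 9 groups, at 26.9 ± 2.36 CPM, and the next, DMSO day 21, stood at 35.6 ± 5.09 (SD, n = 3). With the length and GC correction and the replicate block the difference was -0.56 with an adjusted p of 0.00562, and with the block alone the adjusted p was 0.0630. At days 3, 7 and 14 the log2 differences were 0.15 (SE 0.149), -0.04 (SE 0.188) and -0.17 (SE 0.127). At day 7 the FAKi libraries spread from 31.8 to 56.1 CPM, and without replicate 1, the lowest, the difference was 0.15 with an adjusted p of 0.623. A processed copy, *GNAQP1*, held 740 counts, equal to 2.73% of those of *GNAQ*.

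*GNA11* (chromosome 19, 3094362-3123999, plus strand), the closest relative of *GNAQ*, rose at day 14. It measured 67.04, 68.7 and 52.6 CPM in FAKi and 40.2, 50.8 and 46.2 CPM in DMSO, with every FAKi library above every DMSO library. The log2 fold change was 0.46 (SE 0.122, adjusted p = 0.0161). Without FAKi day 14 replicate 1 it was 0.41 with an adjusted p of 0.0999, and without replicate 2 it was 0.38 (0.129). With the length and GC correction it was 0.31 with an adjusted p of 0.0293. At day 21 the log2 difference of *GNA11* was 0.08 (SE 0.122, adjusted p = 0.673), and FAKi libraries at 53.1 to 57.5 CPM overlapped DMSO libraries at 50.4 to 57.0.

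Because *GNAQ* and *GNA11* encode interchangeable partners of the same receptors, their ratio per kb was computed in each library. *GNAQ* stood below *GNA11* in all 27 libraries. The ratio was not corrected for the shifts of fold changes with length and GC content. On day 3 the order of the treatments in this uncorrected ratio was the reverse of that on day 21. FAKi values of 0.4997 to 0.518 lay above DMSO values of 0.339 to 0.465. However, the day 3 log2 differences of *GNAQ* and *GNA11* were 0.15 and -0.17 in the main fit, and -0.22 and 0.13 with the correction. The part of length and GC content in the ratio was not tested. On day 7 the means were 0.512 ± 0.251 with FAKi, whose libraries spread from 0.266 to 0.768, and 0.520 ± 0.0182 with DMSO. On day 14 they were 0.382 ± 0.121 and 0.572 ± 0.0340, with all FAKi values below the DMSO values. The ratio was 0.470 ± 0.0178 in DMSO at day 0 and 0.405 ± 0.0323 in DMSO at day 21, and 0.295 ± 0.0383 in FAKi at day 21 (SD, n = 3). FAKi values at day 21 were 0.337, 0.262 and 0.287, all below the DMSO values of 0.374, 0.402 and 0.439. With 3 libraries against 3 no exact permutation test of this ratio can go below p = 0.10, so it is given as a description.

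**Figure D4:**
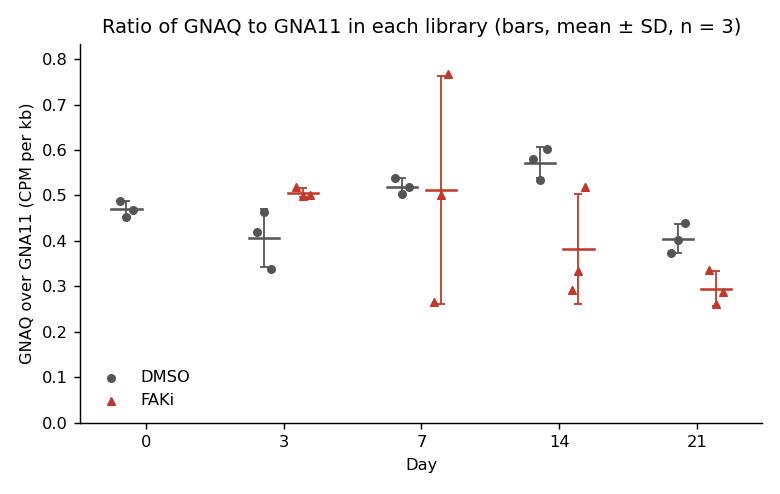
Ratio of *GNAQ* to *GNA11* in CPM per kb (vertical axis, from 0) by day (horizontal axis) for DMSO (circles) and FAKi (triangles), 1 point per library with the group mean and SD (n = 3). The ratio stays under 1 in every library, and at day 21 the 3 FAKi points lie between 0.262 and 0.337, under the 3 DMSO points.

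Of 16 other genes of G protein and phospholipase C signaling tested, 1 fell and 0 rose in the mean FAKi effect, against 15.7% of all genes that passed, with a list median of -0.02. The one that fell was *PLCB2*, another phospholipase C β isoform, with a log2 fold change of -0.30 (SE 0.0791, adjusted p = 0.0107). *PLCB2* fell at day 14 by 0.68 (adjusted p = 0.00650), and at day 21 its log2 difference was 0.18 (adjusted p = 0.358). *GNB2*, a G protein β subunit, had a mean difference of -0.19 (adjusted p = 0.142) but rose at day 14 by 0.50 (adjusted p = 0.00916). *ITPR1*, the receptor that releases calcium in response to phospholipase C activity, had a mean difference of 0.37 (adjusted p = 0.191), and *GRK2*, a kinase that switches off receptors, one of -0.11 (adjusted p = 0.320).

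*CYSLTR2* (chromosome 13, 48653929-48711226, plus strand) had 115 counts in all, from 0 to 12 per library. It had no count in 3 libraries: FAKi day 14 replicate 1 and FAKi day 21 replicates 2 and 3. A count of 0 allows up to 3 counts, that is, up to 0.162 CPM in FAKi day 21 replicate 2. The highest level, 0.812 CPM, was in DMSO at day 0. The change over the DMSO days had an adjusted p of 0.0624, and it passed with DESeq2 (0.0376), filterByExpr (0.0403) and legacy=FALSE (0.0261), and without DMSO day 0 replicate 3 (0.0356) or day 14 replicate 3 (0.0366). No difference between FAKi and DMSO was detectable at this depth, with a log2 difference of -0.50 (SE 0.540) in the mean effect. Of 8 other genes of leukotriene synthesis and reception, 1 had enough counts to be tested. This was *GGT1*, an enzyme that converts leukotrienes, which fell by 0.33 on the log2 scale in the mean effect (SE 0.0969, adjusted p = 0.0223).

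*BAP1* (chromosome 3, 52401008-52410008, minus strand), a tumour suppressor whose loss marks metastasizing uveal melanoma, was well counted in every library, between 45.4 and 78.4 CPM. At day 14 it measured 75.4, 69.7 and 60.3 CPM in FAKi and 60.1, 54.2 and 45.4 CPM in DMSO, which left the lowest FAKi library just above the highest DMSO library. *BAP1* rose by 0.36 on the log2 scale (SE 0.118, adjusted p = 0.0479). Without FAKi day 14 replicate 1 the change was 0.29 with an adjusted p of 0.250, without FAKi replicate 2 it was 0.35 (0.176), and without DMSO replicate 2 or 3 it was 0.37 (0.0886) or 0.26 (0.212). With the length and GC correction it was 0.22 with an adjusted p of 0.152, and it also did not pass with upper quartile scaling (0.0624), thinned counts (0.0556) or all 27 libraries in 1 fit (0.0921). At day 21 the difference was -0.08 (SE 0.126, adjusted p = 0.701) and the groups overlapped.

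Fold changes at day 14 moved with the GC content of the transcript over all genes, from a median of -0.16 under 40% GC to 0.14 over 60% GC. The 2 driver genes that rose at day 14 have GC-rich counted transcripts (*GNA11* 62.9%, *BAP1* 58.8%), and *PLCB4*, which fell, has 39.5%. The summed level of the melanocyte lineage markers also differed at day 14, with 12230 to 12720 CPM in FAKi and 9366 to 10110 CPM in DMSO. The part of either in these results was not tested beyond the correction.

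BAP1 works in a complex with ASXL proteins, HCFC1, OGT and FOXK factors. Of 11 of these genes tested, 0 passed in the mean FAKi effect, against 15.7% of all genes, with a list median of 0.12. The 4 with the smallest p were *ASXL1* with a log2 difference of 0.15, *OGT* with 0.33, *ASXL2* with 0.25 and *MBD6* with 0.23, with adjusted p-values of 0.182 to 0.234. *OGT*, the enzyme that adds O-GlcNAc to proteins, fell at day 14 by 0.80 (SE 0.108, adjusted p = 3.35e-05) and rose at day 21 by 1.61 (SE 0.358, adjusted p = 0.0292). Its DMSO means were 260.5 CPM at day 0, 239 at day 14 and 82.25 at day 21, and its FAKi means 137.4 at day 14 and 247.2 at day 21. From day 0 to day 21 in DMSO, 8 of the 11 fell, with a list median of -0.76, where 44.9% of all genes passed and 4618 of 22259 were lower. *BAP1* itself had a log2 difference of 0.26 (SE 0.114, adjusted p = 0.0943). Fold changes of this comparison moved with transcript length over all genes, as given for *SF3B1*, and the part of length in the list was not tested.

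*SF3B1* (chromosome 2, 197389792-197435044, minus strand), which binds the branch point during splicing, had the highest counts of the 8 genes, from 2576 to 10131 per library. In DMSO its levels were 249.5, 234 and 251 CPM on day 0. They were 148, 146 and 192 CPM on day 21, with no overlap. *SF3B1* fell between these days by 0.60 on the log2 scale (SE 0.145, adjusted p = 0.0117). It was the 1 driver gene of 8 to pass, against 44.9% of all genes tested, and 0 of 8 were called, against 23.3%. Over the same days, fold changes of all genes ran from a median of 0.68 for transcripts under 1 kb to -0.73 for those over 8 kb, and the counted *SF3B1* transcript is 8261 bases long. With the length and GC correction the *SF3B1* difference was 0.01 with an adjusted p of 0.962. Without day 0 replicate 1 or 3, or day 21 replicate 1, it was -0.59 to -0.53 with adjusted p-values of 0.0520 to 0.0526. Without DMSO day 21 replicate 3 it was -0.75 with an adjusted p of 4.59e-13, and *GNAQ* (-0.39, adjusted p = 0.000135), *PLCB4* (-0.43, 0.0305), *BAP1* (0.22, 0.0103) and *CYSLTR2* (-1.63, 0.0488) passed too. The share of all genes that passed in that fit is not given here, so the count of driver genes in it cannot be set against all genes.

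With FAKi on day 21 *SF3B1* measured 195.5, 193 and 239.7 CPM, above all 3 DMSO libraries of that day. The log2 difference was 0.39 (SE 0.168) with an adjusted p of 0.146. Without DMSO day 21 replicate 3 it was 0.55 with an adjusted p of 0.000418, and without 1 of the other 5 libraries 0.28 to 0.45 with adjusted p-values of 0.204 to 0.413. With the replicate block, an alternative fit, the difference was 0.40 with an adjusted p of 0.0248. With the length and GC correction added to the block it was 0.23 with an adjusted p of 0.107. At day 14 the order was the other way round, with 200, 227 and 222 CPM in FAKi and 234, 288 and 241 CPM in DMSO, a log2 difference of -0.24 (SE 0.103, adjusted p = 0.152), or -0.30 without DMSO day 14 replicate 1 (adjusted p = 0.0403). Of 14 other genes of the U2 snRNP and its recruitment, 3 fell and 0 rose in the mean FAKi effect, against 15.7% of all genes that passed, with a list median of -0.07. *SF3B6* and *SF3B5*, small subunits of the same SF3B complex, fell by 0.51 (adjusted p = 0.00308) and 0.41 (adjusted p = 0.0114), and *SF3A3* by 0.19 (adjusted p = 0.0341). *SF3A2* had a difference of -0.15 (adjusted p = 0.224). At day 21 the same 3 genes had log2 changes of -0.92, -0.93 and -0.49 and passed. The DMSO means of *SF3B6*, *SF3B5* and *SF3A3* were 85.66, 25.49 and 81.1 CPM at day 0. At day 21 they were 163.7, 83.84 and 87.98 CPM in DMSO and 85.11, 43.14 and 61.65 CPM in FAKi. The part of the change in DMSO in these results was not tested.

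*PRAME* (chromosome 22, 22547701-22559361, minus strand) had 128 counts in all, from 0 to 17 per library, with no count in 3 libraries. Its levels stayed between 0 and 0.482 CPM. The highest group mean was 0.321 ± 0.172 CPM in DMSO at day 21 and the lowest 0.129 ± 0.105 in DMSO at day 7 (SD, n = 3). The ranges of all neighbouring groups overlapped, and FAKi day 21 and DMSO day 0 were the 1 neighbouring pair whose means differed by more than their spread. No change with FAKi was detectable at this depth, with a log2 difference of 0.11 (SE 0.544) in the mean effect and of -0.19 (SE 0.596) at day 21. PRAME protein is known to join a cullin ubiquitin ligase and to bind retinoic acid receptors. Of 10 such partner genes, 2 fell and 0 rose in the mean effect, against 15.7% of all genes that passed, with a list median of -0.10. *RBX1* and *ELOB*, both subunits of cullin ligases, fell by 0.44 (adjusted p = 0.00797) and 0.51 (adjusted p = 0.00983). Their DMSO means went from 17.46 and 53.85 CPM at day 0 to 53.5 and 236.6 CPM at day 21. In FAKi at day 21 the means of these 2 genes were 23.07 and 110.3 CPM. The part of the change in DMSO was not tested. *RARG*, a retinoic acid receptor, and *EZH2*, a histone methyltransferase, had differences of 0.19 (adjusted p = 0.0601) and 0.29 (adjusted p = 0.0873).

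In DMSO alone, 4 of the 8 driver genes changed over the 5 days: *PLCB4*, *SF3B1* (adjusted p = 0.0217), *BAP1* (adjusted p = 0.0222) and *GNA11* (adjusted p = 0.0382). All genes tested passed in 49.9%. *PLCB4* passed without any 1 library, but *GNA11*, *BAP1* and *SF3B1* did not pass without some of them. *GNAQ* passed without DMSO day 21 replicate 3 (adjusted p = 0.0301), and without that library *SF3B1* passed the test of a difference in FAKi effect between days (0.0349). With the length and GC correction the adjusted p-values of *GNA11*, *BAP1* and *SF3B1* over the DMSO days were 0.185, 0.384 and 0.210. *EIF1AX* and *GNAQ* passed this test with the correction, with adjusted p-values of 0.00036 and 0.00323. In the main fits *EIF1AX*, which fell with FAKi at day 21, had an adjusted p of 0.336 over the DMSO days. Its log2 difference between days 0 and 21 was -0.02 (SE 0.130). With the length and GC correction that difference was 0.45 with an adjusted p of 0.00849, and the one of *GNAQ* went from -0.27 to 0.38 with an adjusted p of 0.0169.

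The genes whose log2 CPM ran most like that of each driver gene over the 27 libraries were found among 16981 genes with a mean of at least 1 CPM. For *SF3B1* they were *ZFC3H1*, *ZNF518A* and *ZMYM2*, with Pearson r of 0.945, 0.938 and 0.934. For *EIF1AX* they included *CMPK1* and *GMFB* (r of 0.925 and 0.922), and for *PLCB4* they were *ZBTB37*, *ZNF141* and *DMTF1* (0.919, 0.905 and 0.902). For *GNAQ* they were *PPTC7*, *TMX3* and *TET1* (0.915, 0.912 and 0.905), for *GNA11* *ERBB2*, *GAK* and *HIRA* (0.895, 0.882 and 0.862), and for *BAP1* *MAP3K11*, *STK25* and *PLEKHM2* (0.875, 0.855 and 0.852). Among the driver genes themselves, *GNAQ* and *EIF1AX* had an r of 0.734, *PLCB4* and *SF3B1* 0.714, and *GNAQ* and *BAP1* -0.659. Taken within the groups, as deviations from the group means, these were 0.596, 0.650 and -0.767. All genes of a library share its depth and base composition, so these values are descriptions.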

How the data were processed

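The 8 genes and the gene lists were chosen with earlier results of these data known. The authors trimmed reads with Trim Galore, checked them with FastQC 0.11.8, aligned them to hg38 with STAR 2.5.3a and counted exons of 1 transcript per gene of GENCODE with HOMER. The deposited values are raw counts, which are whole numbers. The strand setting and the treatment of multi-mapping reads are not given in the sources used here. All columns matched a sample, though that of DMSO day 21 replicate 3 has an additional digit in its day.

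Counts were analysed with edgeR 4.0.16 in R 4.3.3. Genes with fewer than 20 counts in the libraries compared were left out. After TMM scaling, the quasi-likelihood test (glmQLFit with legacy=TRUE, glmQLFTest) was run with Benjamini-Hochberg adjustment over all genes tested. The study's methods use DESeq2, run here as an alternative (1.42.0). Each day used its 6 libraries; the mean effect and its difference between days used 24, and the DMSO days 15. Levels are CPM with TMM factors of all 27 libraries, and log2 CPM used a prior count of 2. The 4 genes of each list with the smallest p in the mean effect, and the 3 most alike genes, were named, except 1 alike gene that is not reported here. The fits were also run on simulated counts, but the outcome is not reported here and supports no result. Deviations of libraries with the same replicate number had r of 0.443, 0.128 and 0.658 at day 21. They had r of 0.000611 to 0.107 at day 3, -0.144 to -0.0714 at day 7 and -0.0260 to 0.00956 at day 14. Libraries with different numbers were not compared in this way, so these values cannot show that the numbers pair the libraries. The replicate block is therefore given as an alternative only. Depth sets counting error only: 1 CPM is at least 12 counts in each library.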

Additional observations from a re-analysis of the deposited data

Results flagged for a closer look

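The FAKi effect on 2 of the 8 driver genes differed between days 3, 7, 14 and 21, by the quasi-likelihood test of edgeR that the 4 daily contrasts are equal over 24 libraries. *EIF1AX* had an adjusted p of 0.000643. In that fit its log2 differences were 0.12 (SE 0.128) at day 3, 0.09 (SE 0.128) at day 7, 0.01 (SE 0.127) at day 14 and -1.003 (SE 0.1296) at day 21, and *EIF1AX* was lower in 3 of 3 FAKi libraries than in any DMSO library at day 21. *PLCB4* had an adjusted p of 0.00916, with log2 differences of 0.44 (SE 0.194), 0.10 (SE 0.194), -0.66 (SE 0.190) and 0.70 (SE 0.197) in the same order. Its lowest and highest DMSO groups were those of days 21 and 14.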

How the results depend on the processing

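Over the single-gene results and their alternatives, 1417 kept direction and side of the threshold, 74 lost and 26 gained the threshold, and 41 changed sign. The cause of these changes was not tested. *EIF1AX* and *PLCB4* passed the test of a difference between days under every alternative run, with adjusted p-values up to 0.00638 and 0.0361. At day 21, *EIF1AX* became the 1 driver gene called with DESeq2, RLE scaling, no count filter or all 27 libraries in 1 fit, and by adjusted p alone 2 passed, or 1 with counts thinned to 1 depth. At day 14, 3 passed by adjusted p alone, and 1 with all 27 libraries in 1 fit or 2 with upper quartile scaling or thinned counts. In the mean effect 0 passed with no count filter, with *EIF1AXP1* counts added, without the 2 similar FAKi libraries, at an adjusted p of 0.01 or with the fold limit added. There 3 passed with the length and GC correction, with or without the replicate block. Over all genes 4985 passed with that correction and 4618 with the block added, against 4371 in the main fit. Over the DMSO days 2 passed with no count filter and 1 at an adjusted p of 0.01. Between DMSO days 0 and 21, 1 passed by adjusted p alone, and 2 with the length and GC correction, with or without the block.

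With 1 library left out at a time, the driver genes called ranged from 0 to 1 at day 21 and 0 to 1 between DMSO days 0 and 21. Those that passed the adjusted p alone ranged from 0 to 1 in the mean effect, 2 to 3 in the difference between days, 1 to 5 over the DMSO days, 0 to 1 at day 3, 0 to 4 at day 14, 0 to 3 at day 21 and 0 to 5 between DMSO days 0 and 21. Log2 fold changes that turned sign in these fits ranged at day 3 from -0.51 to 0.74 (*CYSLTR2*) and -0.28 to 0.27 (*PRAME*). At day 7 they ranged from -0.24 to 0.15 (*GNAQ*), -0.10 to 0.26 (*GNA11*), -0.000907 to 0.21 (*PLCB4*), -0.0687 to 0.20 (*BAP1*) and -0.0838 to 0.0265 (*SF3B1*). At day 14 *EIF1AX* ranged from -0.0751 to 0.0528 and *PRAME* from -0.21 to 0.96, and at day 21 *PRAME* from -0.54 to 0.27. In the mean effect *BAP1* ranged from -0.00915 to 0.0574 and *PRAME* from -0.24 to 0.59, and between DMSO days 0 and 21 *EIF1AX* from -0.11 to 0.0658.

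The length and GC correction, added after seeing the data, turned the sign at day 3 for *GNAQ* (-0.22), *GNA11* (0.13), *SF3B1* (-0.13, or -0.12 with the block), *EIF1AX* (-0.27, or -0.26 with the block), *PRAME* (0.0134) and, with the block, *CYSLTR2* (-0.0488). It turned *SF3B1* in the mean effect (-0.0115, or -0.0113 with the block), and between DMSO days 0 and 21 *GNAQ* (0.38), *PLCB4* (0.22), *SF3B1* (0.00636, or 0.0062 with the block) and *EIF1AX* (0.45). *EIF1AX* at day 14 was -0.0164 with upper quartile scaling, -0.00615 where each library needed 10 counts, and -0.00277 with filterByExpr. *BAP1* in the mean effect was -0.0273 without the 2 similar FAKi libraries. With the replicate block *SF3B1* passed at day 21 and *GNA11* no longer passed over the DMSO days (adjusted p = 0.0689). The block moved no other driver gene across the adjusted p.

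Over all genes, calls at day 3 went from 0 to 755 with DESeq2, 1181 without a minimum count, 802 with all 27 libraries in 1 fit and 6 thinned. At day 7 they went from 6 to 102, 220 and 69 under the first 3 of these and to 0 with the block. At day 14, 388 became 632 with all 27 libraries. At day 21, 1226 became 1913 without a minimum count, 1954 with all 27 libraries, 2076 with the block and 1917 with the correction and the block. For the difference between days, 2881 became 5219 with DESeq2 and 4831 with no count filter, and between DMSO days 0 and 21, 5177 became 3430 with the correction and 3276 with the block added. With 1 library left out, the genes called ranged from 0 to 2765 at day 3, 0 to 248 at day 7, 275 to 445 at day 14, 52 to 4248 at day 21 and 3402 to 7999 between DMSO days 0 and 21. The genes that passed ranged from 3169 to 6849 in the mean effect, 1574 to 6046 in the difference between days and 9653 to about 14770 over the DMSO days. Depth limits *CYSLTR2* and *PRAME*, whose SEs in the mean effect were 0.540 and 0.544 on the log2 scale.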
